A study of Rattus norvegicus with 32 samples.

Results

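Nupr1, Gadd45g, Bax, Cdkn1a and Mdm2 are rat genes of the stress and DNA damage response, and their RNA levels were followed in 16 cultures of epithelial cells. They are 5 of the 14506 genes with a symbol of their own on the array, and were read by all probe sets annotated to one of these symbols alone. These are 6 of 15310 such probe sets, 2 for Bax and 1 for each of the other 4 genes. The genes were selected on RNA levels measured in these same cultures. Comparisons in which a gene passes the test are taken as those that picked it: thymic cells after a second transplantation against before grafting for Bax and Nupr1, after a first against before for Nupr1 and Gadd45g, and donors of P1 against E16 for Cdkn1a and Mdm2. In a comparison that picked a gene, its values are a description without a test. That holds also where groups are said not to overlap, and the share of all probe sets that separate likewise was not counted.

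The study compared cultured thymic epithelial cells (TEC) with hair follicle (HF) cells before and after transplantation into skin. All cells came from Sprague-Dawley rats with a constitutive EGFP transgene and were grown on irradiated 3T3-J2 cells, a mouse fibroblast line. Grafted cells were recovered from skin grafts on nude mice and grown again. RNA of each culture was read on 2 Affymetrix rat arrays, 32 arrays in all, as log2 signals, and the 2 arrays were averaged.

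The TEC cultures after a second transplantation were Clone_287 and Clone_347 from embryonic day E16 donors, Clone_194 from a P1 donor and Clone_354, a bulk culture of the 4months stage. After a first transplantation they were Clone_217 and Clone_218 (E16), Clone_57 (P1) and Clone_907 (4months, bulk). Before grafting they were PRE16cl11_VII (E16), PRP1cl11_VII (P1), PRP4mo_bulk and PRP4mo_Cl09 (both 4months). The HF cultures, all labelled P5, were YR219P5_RC (bulk) and Clone_54 after a first transplantation, and YR219P5_Bulk_V (bulk) and YR219P5cl7 before. Cultures after a second or a first transplantation are called second-graft and first-graft cultures here. In all 11 cultures were clonal and 5 were bulk, so most stand for the progeny of a single cell. No grafted culture carries the name of an ungrafted one, and no ungrafted culture is labelled as recovered and grown again, so grafting cannot be told apart from recovery, longer culture or the choice of clones. Tissue likewise cannot be told apart from donor stage, since P5 is a label of HF cultures alone.

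Cells answer DNA damage and other stress by switching on genes that halt the cell cycle, repair DNA or start apoptosis. Cdkn1a encodes p21, an inhibitor of cyclin-dependent kinases that arrests the cycle, and Mdm2 encodes a ubiquitin ligase that limits this response again. Bax encodes a protein of the Bcl2 family that permeabilises the outer mitochondrial membrane in apoptosis. Gadd45g belongs to the Gadd45 family, which couples stress signals to the p38 and JNK kinases and to growth arrest. Nupr1 encodes a small chromatin protein that is switched on by nutrient, endoplasmic reticulum and other stress, in part through the factor Atf4.

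The sequence before the start of 4 of the 5 genes was found in a RefSeq promoter table of rat build GRCr8, and those of Nupr1 and Gadd45g are shown because they hold letters of known stress response elements. The motifs were chosen with the sequences and the earlier results in view. Capitals mark CACGTG, the E-box, and TTGCATCA, a composite site at which C/EBP and ATF factors can bind. Both strands were searched, and the motifs do not overlap. The stretches are Nupr1 chr1:190645929-190646091 and Gadd45g chr17:13530446-13530534, each read 5′ to 3′ on the strand of its gene, which is the minus strand for both.
Nupr1: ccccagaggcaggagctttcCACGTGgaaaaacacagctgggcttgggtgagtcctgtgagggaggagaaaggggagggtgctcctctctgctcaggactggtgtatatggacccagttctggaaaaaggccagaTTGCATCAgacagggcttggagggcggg
Gadd45g: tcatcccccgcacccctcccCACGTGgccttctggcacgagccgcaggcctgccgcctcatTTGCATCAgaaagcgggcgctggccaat

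In the 300 bases searched for each gene, TTGCATCA began 55 bases before the start of Nupr1 and 122 bases before that of Gadd45g, and CACGTG began 170 and 163 bases before it. Of 33469 rat promoters of the same length, 0.795% held TTGCATCA, 6.42% held CACGTG and 0.0896% (30 promoters) held both. The Cdkn1a and Mdm2 windows held neither motif, and Bax had no entry. These matches describe letters in the windows and no binding was measured.

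Nupr1, the stress-induced chromatin protein, had the widest range among the 6 probe sets, with culture levels that spanned 5.35 log2 units. It read 9.25 in Clone_287, 8.75 in Clone_347, 8.76 in Clone_194 and 8.48 in Clone_354 after a second transplantation. After a first transplantation it read 8.84 in Clone_217, 8.97 in Clone_218, 7.62 in Clone_57 and 7.59 in Clone_907, and before grafting 5.64 in PRE16cl11_VII, 5.60 in PRP1cl11_VII, 5.37 in PRP4mo_bulk and 5.65 in PRP4mo_Cl09. All 8 grafted TEC cultures lay above all 4 ungrafted ones. At its lowest, Nupr1 read above only 40.2% of the probe sets with 1 symbol in the same culture. Within the first-graft cultures the E16 clones were high and the P1 and 4months cultures low. The group means were 8.81 ± 0.32 after a second transplantation, 8.26 ± 0.75 after a first and 5.57 ± 0.13 before grafting (SD, n = 4 each), which gave log2 differences of 3.25 ± 0.51 (SE) and 2.69 ± 0.51 from the ungrafted group. In bulk RNA, more cells with the transcript and more RNA per cell cannot be told apart.

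**Figure D1:**
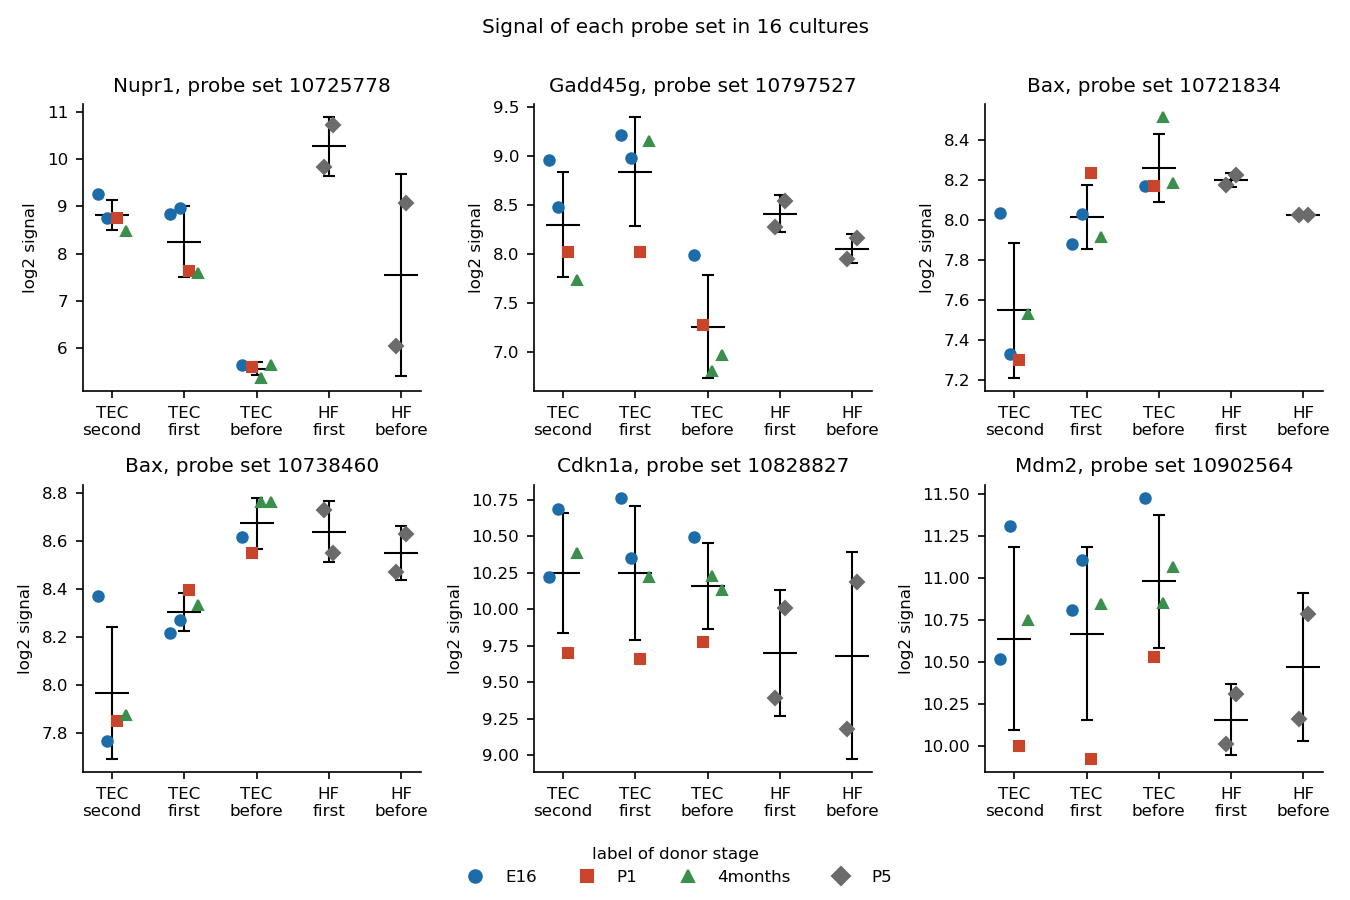
Each point is the log2 signal of 1 culture (mean of 2 arrays), with group means and SD as bars, for second-graft, first-graft and ungrafted TEC cultures (4 each) and first-graft and ungrafted HF cultures (2 each); symbols give the labelled donor stage. Nupr1 lies between 7.59 and 9.25 in grafted TEC cultures and between 5.37 and 5.65 in ungrafted ones, and the P1 culture is the lowest of every TEC group for Cdkn1a and Mdm2.

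Gadd45g, the Gadd45 family member, stood highest after a first transplantation. Its levels were 8.95, 8.48, 8.02 and 7.73 in Clone_287, Clone_347, Clone_194 and Clone_354, 9.21, 8.98, 8.02 and 9.15 in Clone_217, Clone_218, Clone_57 and Clone_907, and 7.99, 7.27, 6.80 and 6.97 in the ungrafted PRE16cl11_VII, PRP1cl11_VII, PRP4mo_bulk and PRP4mo_Cl09. The first-graft cultures lay above the ungrafted ones, but only by a margin between Clone_57 and PRE16cl11_VII of a few hundredths, and the second-graft cultures overlapped with the ungrafted ones. The first-graft cultures differed from the ungrafted ones by 1.58 ± 0.32. After a second transplantation the difference was 1.04 ± 0.32, which did not pass the threshold of 0.05 (limma adjusted p = 0.0822). Without PRE16cl11_VII it was 1.28 and passed (adjusted p = 0.0406), and it also passed without Clone_57 (adjusted p = 0.0479). Both comparisons use the same 4 ungrafted cultures.

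Bax, the pro-apoptotic Bcl2 family member, was lowest after a second transplantation with both of its probe sets. Probe set 10721834 read 8.03, 7.33, 7.30 and 7.53 in Clone_287, Clone_347, Clone_194 and Clone_354, 7.88 to 8.23 in the 4 first-graft cultures and 8.17 to 8.51 in the 4 ungrafted ones. Probe set 10738460 read 8.37, 7.77, 7.85 and 7.87 in the same second-graft cultures, 8.22 to 8.40 after a first transplantation and 8.55 to 8.76 before grafting. Clone_287 was the highest of the second-graft cultures with both, and even so the second-graft and ungrafted cultures did not overlap. The log2 differences from the ungrafted group were −0.71 ± 0.15 and −0.71 ± 0.12 after a second transplantation. After a first they were −0.25 ± 0.15 and −0.37 ± 0.12 (adjusted p = 0.465 and 0.173). Both probe sets gave lower estimates in both comparisons, and their levels correlated at r = 0.92 over the 16 cultures. The annotation used gives no position for either, so which transcripts each detects is not known.

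No difference of Cdkn1a or Mdm2 with grafting passed the threshold. Cdkn1a averaged 10.25 ± 0.41 after a second transplantation, 10.25 ± 0.46 after a first and 10.16 ± 0.30 before grafting (SD, n = 4 each). The log2 differences from the ungrafted group were 0.09 (95% interval −0.51 to 0.70) and 0.09 (−0.51 to 0.69), with adjusted p = 0.912 and 0.929. Mdm2 averaged 10.64 ± 0.54, 10.67 ± 0.52 and 10.98 ± 0.40 in the same groups. Its differences were −0.34 (−0.98 to 0.31) and −0.31 (−0.95 to 0.34), with adjusted p = 0.602 and 0.699.

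Of the 6 probe sets, limma called 3 between second-graft and ungrafted TEC cultures, Nupr1 higher and both of Bax lower, where 3.86% of all probe sets were called, 1.93% higher and 1.93% lower. Between first-graft and ungrafted cultures it called 2 (Nupr1 and Gadd45g, both higher), where 0.516% of all were called. Since these comparisons picked those genes, nothing is read from the counts. The calls also moved with the cultures used. Nupr1 after a second transplantation and Bax probe set 10738460 were called whichever culture was left out, whereas Bax probe set 10721834 was not called without PRP4mo_bulk, PRP4mo_Cl09, Clone_347 or Clone_194. After a first transplantation Nupr1 was not called without any 1 of the 4 ungrafted TEC cultures, Clone_217, Clone_218 or Clone_907. Gadd45g was not called in 10 of the 16 fits that left out a culture, namely without PRP1cl11_VII, PRP4mo_bulk, PRP4mo_Cl09, Clone_217, Clone_218, Clone_907, Clone_347, Clone_194, YR219P5_RC or Clone_54. Thymic epithelial markers moved with these differences: their list means were 5.84 to 6.86 in second-graft, 5.91 to 6.93 in first-graft and 7.18 to 7.62 in ungrafted TEC cultures. After a second transplantation 2 of the 7 marker probe sets fell, and the median of the 7 was −0.98 beside 0.014 over all. These 2 were 1 of the 2 of Krt8, a keratin of simple epithelia (−2.09), and Pax1, a transcription factor of the thymus primordium (−1.30). Both lay close to the threshold (limma adjusted p = 0.04819 and 0.04795). Their calls were lost in 13 and 14 of the 16 fits that left out a culture. After a first transplantation limma called 0 of the 7, with a median of −0.80. The part of these markers in the differences of Nupr1, Gadd45g and Bax was not tested.

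None of the 5 genes passed between second-graft and first-graft TEC cultures. Nupr1 differed by 0.56 ± 0.51, Gadd45g by −0.54 ± 0.32 and Bax by −0.47 ± 0.15 and −0.34 ± 0.12, each with adjusted p = 1. With a culture left out, Nupr1 lay between 0.33 (without Clone_907) and 0.80 (Clone_218) and Gadd45g between −0.82 (Clone_57) and −0.35 (Clone_354). Limma called 0 of the 6 and 0% of all probe sets here, with 532 probe sets at an unadjusted p under 0.05. Without Clone_287, whose Bax level was the highest of its group, the Bax differences were −0.63 and −0.48. The low levels of the second-graft cultures picked Bax, so its values here are a description.

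**Figure D2:**
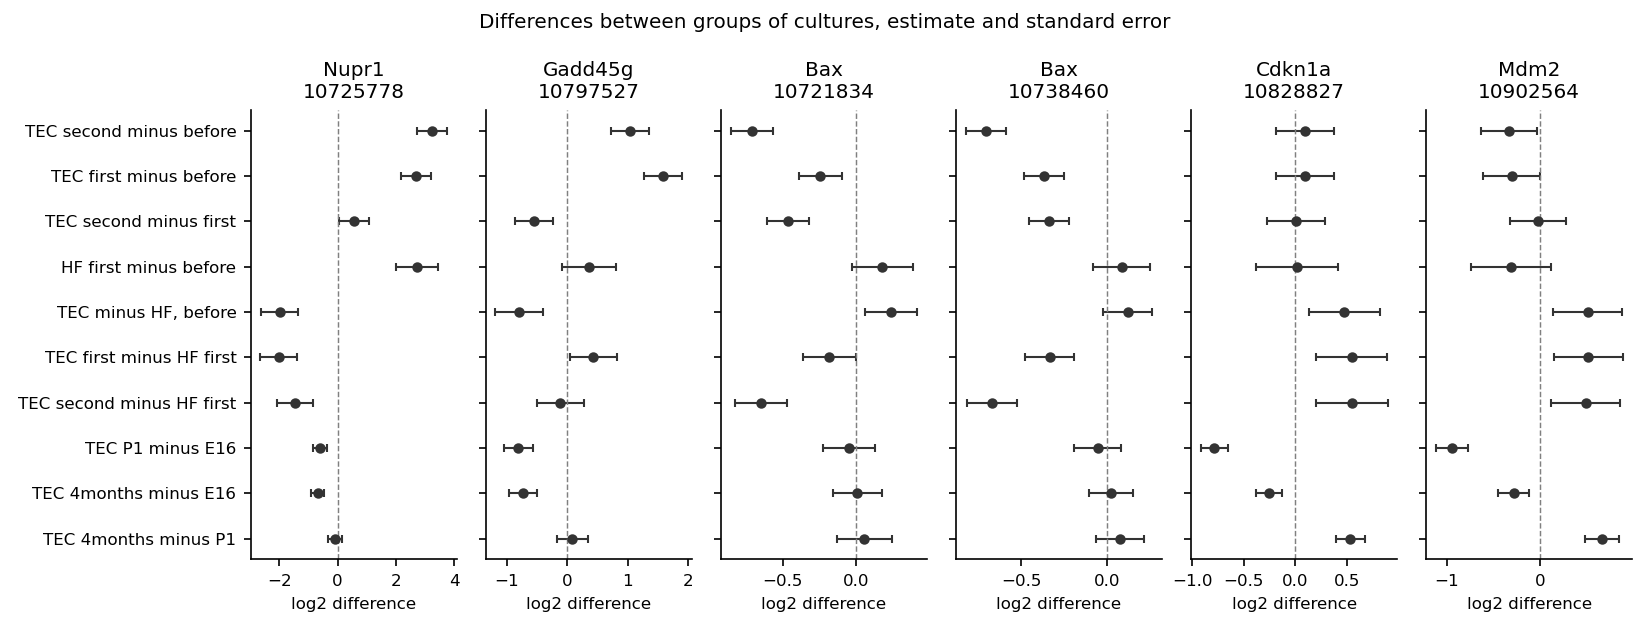
Points are log2 differences between groups of cultures for each probe set and horizontal bars are limma standard errors, on axes that differ between panels. Nupr1 lies right of 0 in each comparison of grafted with ungrafted cultures, Bax lies left of 0 after a second transplantation, and Cdkn1a and Mdm2 lie farthest left between P1 and E16.

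In hair follicle cells 3 of the 4 cultures read 9 or more for Nupr1. It read 9.83 in YR219P5_RC and 10.71 in Clone_54 after transplantation, and 6.04 in YR219P5_Bulk_V and 9.07 in YR219P5cl7 before. The ungrafted HF cultures lay far apart, the bulk culture at a level near that of ungrafted TEC cultures and the clone near that of grafted ones. Grafted and ungrafted HF cultures differed by 2.72 ± 0.72 (adjusted p = 0.562), by 4.24 without YR219P5cl7 and by 1.21 without YR219P5_Bulk_V. Leaving out either culture leaves a single ungrafted HF culture, so only the differences are given. Limma called 0 of the 6 probe sets and 0% of all between grafted and ungrafted HF cultures, with 1353 at an unadjusted p under 0.05. The first transplantation difference of Nupr1 in TEC minus that in HF was −0.03 (95% interval −1.93 to 1.87, adjusted p = 0.996), where limma called 0% of all probe sets and 866 had an unadjusted p under 0.05. That value was −1.55 without YR219P5cl7 and 1.48 without YR219P5_Bulk_V. For Gadd45g it was 1.22 (0.04 to 2.40, adjusted p = 0.826). The median of all probe sets differed by 0.10 between grafted and ungrafted HF cultures and by −0.11 between grafted TEC and grafted HF cultures, so differences below about that size are not read.

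Between the tissues, ungrafted TEC cultures had a lower mean of Nupr1 than ungrafted HF cultures. First-graft and second-graft TEC cultures had a lower mean than grafted HF cultures. With all cultures in the fit, none of these differences passed. Before grafting TEC cultures had 5.57 ± 0.13 and HF cultures 7.55 ± 2.14 (SD, n = 4 and 2), a difference of −1.99 ± 0.62 (adjusted p = 0.149). Without YR219P5_Bulk_V it was −3.50, and without YR219P5cl7 it was −0.47, each against a single HF culture. First-graft TEC cultures differed from grafted HF cultures by −2.02 ± 0.62 (adjusted p = 0.196) and second-graft ones by −1.46 ± 0.62 (adjusted p = 0.207). Limma called 0 of the 6 probe sets in each of these comparisons, beside 1.55% of all before grafting, 0.0718% for first-graft and 0.0457% for second-graft TEC cultures, with 2065, 2596 and 3215 at an unadjusted p under 0.05.

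No difference of Bax, Gadd45g, Cdkn1a or Mdm2 between TEC and HF cultures passed. Before grafting the differences of TEC from HF were 0.24 and 0.12 for Bax, −0.79 for Gadd45g, 0.47 for Cdkn1a and 0.51 for Mdm2 (adjusted p = 0.404 for Gadd45g, the lowest of these). Without YR219P5_Bulk_V those of Cdkn1a and Mdm2 were −0.03 and 0.20, and without YR219P5cl7 0.98 and 0.82. The second-graft TEC cultures differed from grafted HF cultures in Bax by −0.65 ± 0.18 and −0.67 ± 0.15, which did not pass (adjusted p = 0.12 and 0.0939). Without Clone_287, the second-graft culture with the highest Bax, these were −0.81 for both probe sets. They are a description, since the same low second-graft levels picked Bax.

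Among thymic cultures Cdkn1a and Mdm2 were lowest in those of P1 donors. Cdkn1a read 9.70 in Clone_194, 9.66 in Clone_57 and 9.78 in PRP1cl11_VII, the 3 cultures of P1 donors, against 10.22, 10.69, 10.76, 10.35 and 10.50 in the 5 E16 cultures Clone_287, Clone_347, Clone_217, Clone_218 and PRE16cl11_VII. Mdm2 read 10.00, 9.93 and 10.53 in the same P1 cultures, against 10.52, 11.31, 10.81, 11.11 and 11.47 in the E16 cultures. All 3 P1 cultures lay below all 5 E16 cultures for Cdkn1a, whereas for Mdm2 the ungrafted PRP1cl11_VII overlapped with the second-graft Clone_287 by about a hundredth. Within each transplantation state the P1 culture was the lowest for both genes. With the state in the model the log2 difference was −0.79 ± 0.13 for Cdkn1a and −0.94 ± 0.17 for Mdm2. Limma called these 2 of the 6, both lower in P1, where 6.08% of all probe sets were called, 2.85% higher and 3.23% lower. Neither gene was called without Clone_57 or without Clone_194, and Mdm2 was not called without PRE16cl11_VII either. The stage labels of grafted cultures are those of the donor cells.

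The means of the 4months cultures lay between those of the others for both genes. Cdkn1a averaged 10.50 ± 0.23 in E16, 9.71 ± 0.06 in P1 and 10.24 ± 0.11 in 4months cultures (SD, n = 5, 3 and 4). Mdm2 averaged 11.04 ± 0.38 in E16, 10.15 ± 0.33 in P1 and 10.88 ± 0.13 in 4months cultures. The 4months cultures differed from P1 by 0.53 ± 0.14 and 0.66 ± 0.18 (adjusted p = 0.149 and 0.181) and from E16 by −0.25 and −0.28, and none of these passed. Limma called 0 of the 6 in both comparisons, beside 0.353% of all probe sets for 4months minus P1 (1535 at an unadjusted p under 0.05) and 0.0914% for 4months minus E16 (1703).

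None of the other 3 genes passed between donor stages. Gadd45g differed by −0.80 ± 0.24 between P1 and E16 cultures (adjusted p = 0.0833). Without Clone_907 it was −0.84 (adjusted p = 0.00915), and without Clone_57 it was −0.52 (adjusted p = 0.531). The 4months cultures differed from E16 by −0.72 ± 0.23 (adjusted p = 0.326), and without Clone_907, the 4months culture with 9.15, by −1.11 (adjusted p = 0.0252). Nupr1 differed by −0.59 ± 0.23 between P1 and E16 and by −0.68 ± 0.22 between 4months and E16 (adjusted p = 0.168 and 0.33), and without Clone_57 the difference between P1 and E16 was −0.34. The Bax differences lay between −0.05 and 0.08 in the 3 stage comparisons with both probe sets.

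The levels of Cdkn1a and Mdm2 correlated at r = 0.82 (Spearman rho 0.79) over 16 cultures, 0.79 without the 2 cultures farthest from the median, and 0.79 within the 12 TEC cultures. Once the means of state and stage were taken out, r was 0.44. Nupr1 and Gadd45g correlated at r = 0.68 (rho 0.70), 0.53 without the 2 farthest cultures and 0.77 within TEC, and at −0.09 with state and stage taken out. In the same residuals the Bax probe sets correlated with Mdm2 at −0.78 and −0.81 and with Cdkn1a at −0.64 and −0.81. Without taking state and stage out, the Bax probe sets correlated with Mdm2 at −0.05 and −0.04 over the 16 cultures and 0.08 and 0.17 within TEC, and with Cdkn1a at −0.23 and −0.31 over the 16 cultures. Among the E16 and 4months cultures of its group, Clone_287 had the highest Bax and the lowest Mdm2. These values describe 16 cultures that share groups, or the 12 TEC cultures alone where state and stage were taken out. Whether cultures share a donor is not labelled.

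**Figure D3:**
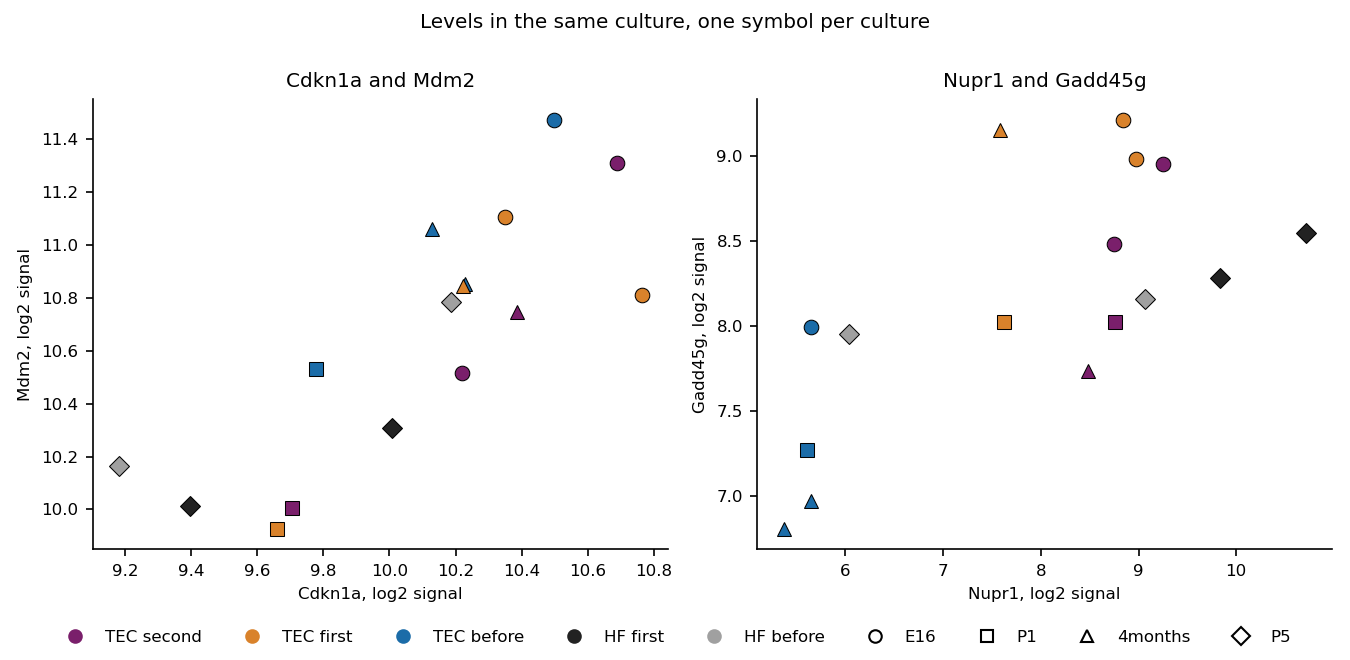
Each symbol is 1 culture, coloured by group and shaped by donor stage, with log2 signals of Cdkn1a against Mdm2 on the left and of Nupr1 against Gadd45g on the right. The 3 P1 cultures sit at Cdkn1a levels of 9.66 to 9.78, below the TEC cultures of other stages, and the 4 ungrafted TEC cultures sit at Nupr1 levels of 5.37 to 5.65.

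The genes whose levels over the 16 cultures were most like each of the 5 are given as a description. For Nupr1 they were Clpx, which encodes a mitochondrial protease subunit (r = 0.92), Keap1, the repressor of the oxidative stress factor Nrf2 (0.92), and Psat1, an enzyme of serine synthesis (0.92). For Gadd45g they were Chp1 (0.94), Sirt4 (0.94) and Nr1d2 (0.93). Those of Bax included proteasome subunits and mitochondrial ribosomal proteins with both probe sets: Mrps14 (0.95), Psmb4 (0.93) and Nme2 (0.93) for 10721834, and Rbis (0.96), Psmb1 (0.95) and Mrpl17 (0.95) for 10738460. Cdkn1a was most like Nat9 (0.91), Llgl2 (0.91) and Ifih1 (0.89), and Mdm2 like Gga2 (0.90), Ggta1 (0.89) and Ephx1 (0.88), which encodes epoxide hydrolase.

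Ephx1 read 8.23, 7.73 and 9.16 in the P1 cultures Clone_194, Clone_57 and PRP1cl11_VII, against 9.59, 10.24, 10.14, 9.85 and 10.86 in the E16 cultures Clone_287, Clone_347, Clone_217, Clone_218 and PRE16cl11_VII. The difference was −1.84 ± 0.35, a description since the gene is among those most like Mdm2. In the list of arrest, repair and metabolism genes, 7 of 22 measured genes passed between P1 and E16 (31.8%), 1 higher and 6 lower, Ephx1 among them, beside 6.08% of all probe sets, and the median difference was −0.28 beside 0.0036 over all probe sets. Among those that fell was Gdf15, a secreted stress cytokine (−1.25). Tnfrsf10b, a death receptor, rose by 1.32. Ccng1, a damage-induced cyclin, differed by −0.36 ± 0.11 (adjusted p = 0.0777). The list mean level was 8.24 to 8.37 in P1 cultures and 8.59 to 8.77 in E16 cultures.

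These stage calls rest on 3 P1 cultures. By limma the count of these genes was 0 of 22 without Clone_57 (9 at an unadjusted p under 0.05) and 0 without Clone_194 (8). It was 2 without PRE16cl11_VII and 3 without Clone_217. The mean level of the proliferation genes was 9.73 to 10.02 in P1 cultures and 8.61 to 9.74 in E16 cultures. Of their 19 probe sets 2 rose, Mcm7 by 1.43 and Mcm2 by 0.85, both subunits of the replicative helicase. These 2 calls were lost in 2 and 9 of the 16 fits that left out a culture. Of the 19 estimates 0 were below 0. Of the thymic epithelial markers both Krt8 probe sets were lower in P1 (−1.68 and −1.99), 2 of 7, with list means of 5.84 to 7.24 in P1 and 6.38 to 7.18 in E16 cultures. The part of either list in the differences of Cdkn1a and Mdm2 was not tested.

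Among the genes of damage signalling and Mdm2 partners, Cdkn2a, whose locus encodes the Mdm2 inhibitor Arf and the kinase inhibitor p16, had the largest difference between P1 and E16. It read 10.05, 10.29 and 10.44 in the P1 cultures Clone_194, Clone_57 and PRP1cl11_VII, against 4.05, 4.48, 3.79 and 4.49 in the grafted E16 clones Clone_287, Clone_347, Clone_217 and Clone_218 and 9.79 in the ungrafted PRE16cl11_VII. The second-graft 4months culture Clone_354 read 4.43, the first-graft Clone_907 8.04, and the ungrafted 4months cultures 9.88 and 9.94. The difference between the stages was 4.49 ± 0.93 (adjusted p = 0.026), and it did not appear between the ungrafted P1 and E16 cultures at 10.44 and 9.79. Cdkn2b, which encodes p15, read 8.95, 8.81 and 9.48 in the P1 cultures, against 5.91, 6.53, 6.05, 6.04 and 8.76 in the E16 cultures in the same order. It too was high in the ungrafted E16 culture alone among them (difference 2.19 ± 0.42, adjusted p = 0.0212). The kinase genes Chek2 (0.68) and Cdk6 (0.62), Cdk4 (0.41) and Usp7 (0.46), a deubiquitinase of Mdm2, also rose. Their calls were lost in 9, 5, 4 and 2 of the 16 fits that left out a culture. Mdm4, the Mdm2 partner, differed by −0.09 ± 0.17 (adjusted p = 0.842).

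**Figure D4:**
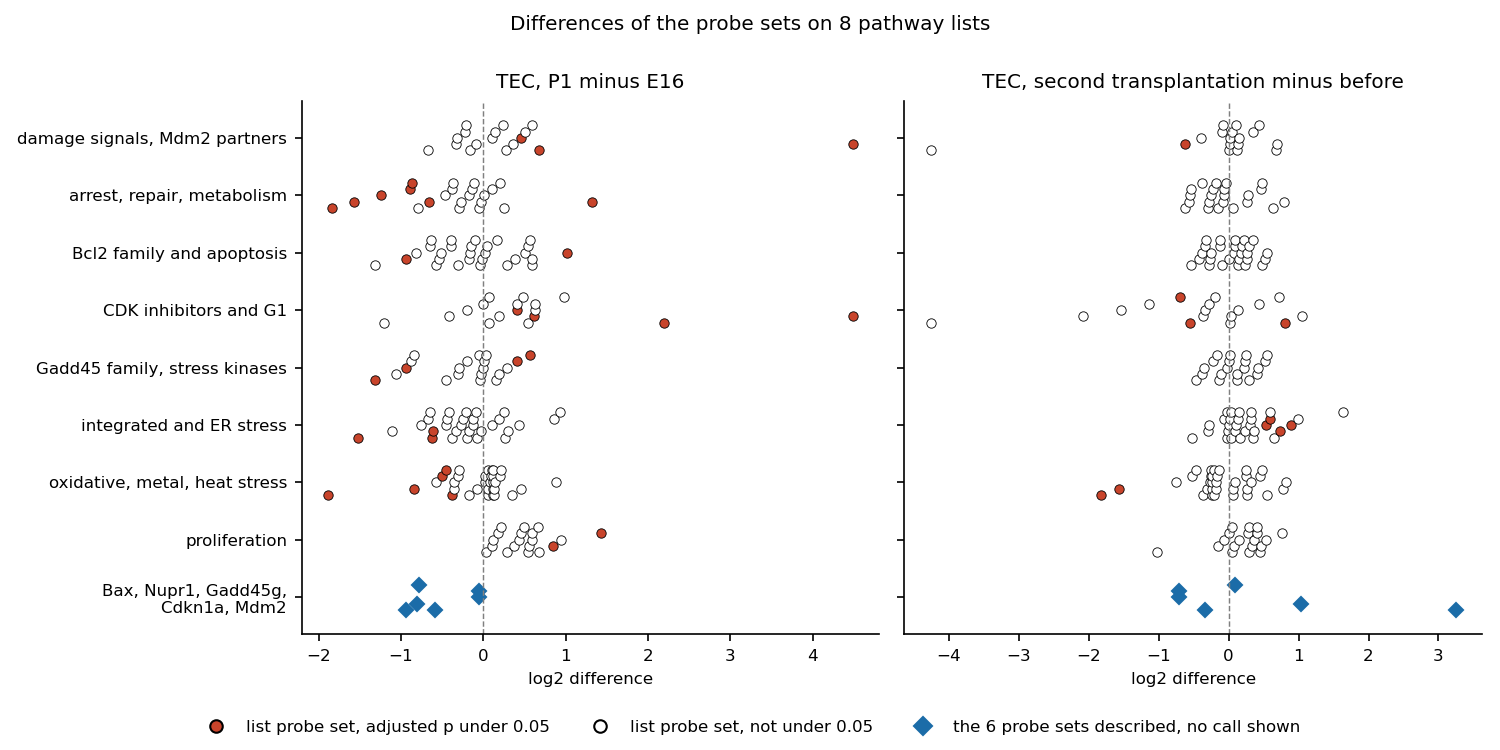
Each circle is a probe set of 1 of 8 pathway lists placed at its log2 difference, for TEC cultures of P1 minus E16 donors on the left and after a second transplantation minus before on the right, filled where the limma adjusted p was under 0.05; diamonds are the 6 probe sets of the described genes. On the left 29 of 185 list probe sets are past the threshold, against 10 of 185 on the right, and Cdkn2a stands at 4.49 in both lists that hold it.

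Several stress genes of other kinds were lower in P1 than in E16 cultures. Of the list of the integrated and endoplasmic reticulum stress response, 3 of 30 probe sets (10%) passed, where 6.08% of all did, and all were lower: Ddit3, the stress-induced factor Chop (−1.53), Asns, asparagine synthetase (−0.62), and Eif2ak3, the kinase Perk (−0.61). Atf4, Trib3 and Gadd45b did not pass (−0.21, −0.75 and −0.85, with adjusted p = 0.36, 0.126 and 0.154). Of the oxidative, metal and heat stress list 5 of 33 (15.2%) fell, but only 12 of the 33 estimates were below 0. The list median was 0.06 beside 0.0036 over all probe sets. Those that fell were led by Nqo1, a quinone reductase (−1.89 ± 0.16, adjusted p = 0.0014), with Sqstm1 (−0.84), Srxn1 (−0.50) and Gclc (−0.46), genes known as targets of the factor Nrf2. The call of Nqo1 held whichever culture was left out, whereas those of Srxn1 and Gclc were lost in 10 and 8 of the 16 such fits. Gadd45a fell by 0.94 on the log2 scale and the phosphatase gene Dusp1 by 1.32. Map2k6 (0.56) and Map2k7 (0.41), which encode activators of p38 and JNK, rose. The calls of Gadd45a, Dusp1, Map2k6 and Map2k7 were lost in 3, 6, 8 and 5 of the 16 such fits. Of the Bcl2 family list Bcl2, the inhibitor of apoptosis, rose by 1.01 and Bcl2l11, which encodes the pro-apoptotic Bim, fell by 0.94, with 26 of 28 not past. Bak1 (0.16) and Bcl2l1 (−0.65 and −0.52) did not pass (adjusted p = 0.652, 0.137 and 0.116), nor did Cdkn1b (−0.42, adjusted p = 0.219).

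Over all 8 lists, 29 of 185 probe sets (15.7%) passed between P1 and E16, 12 higher and 17 lower, beside 6.08% of all probe sets. The count was 1 without Clone_57, 3 without Clone_194, 11 without PRE16cl11_VII, 12 without Clone_217, 18 without PRP4mo_Cl09 and 51 without Clone_907.

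Between second-graft and ungrafted TEC cultures 10 of 185 list probe sets passed (5.41%), 5 in each direction, beside 3.86% of all probe sets. Slc3a2, a subunit of amino acid transporters and an Atf4 target, read 11.68, 11.87, 11.72 and 11.84 in Clone_287, Clone_347, Clone_194 and Clone_354, against 11.21, 10.97, 10.97 and 11.01 before grafting, and rose by 0.74 ± 0.09 (adjusted p = 0.00324). Psat1 rose with both probe sets (0.60 and 0.54), a description since the gene is among those most like Nupr1. Eif2ak3 rose by 0.89 and Rb1, the retinoblastoma gene, by 0.81. Mt2A, a metallothionein, fell with both probe sets (−1.83 and −1.56), as did the cyclin genes Ccnd3 (−0.69) and Ccnd1 (−0.55) and Daxx (−0.63). Of the 30 probe sets of the integrated and endoplasmic reticulum stress list 4 rose, both of Psat1 among them, and 0 fell. The list median was 0.16 beside 0.01 over all. Ddit3 (0.14), Atf4 (−0.01) and Trib3 (0.37), which are on that list, did not pass (adjusted p = 0.929, 0.987 and 0.601).

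In 4 of the 8 lists nothing passed after a second transplantation. Limma called 3.86% of all probe sets in this comparison, a share at which lists of this size would hold few calls. At an unadjusted p under 0.05 it gave 3005 of all probe sets. The 22 genes of arrest, repair and metabolism (median −0.11) and the 28 probe sets of the Bcl2 family (0.09) held 0 calls each. So did the 20 of the Gadd45 family and stress kinases (0.07) and the 19 of proliferation (0.29). The Bax relatives Bcl2 (−0.27), Bcl2l1 (0.48 and 0.27) and Bak1 (−0.12), and the Gadd45g relatives Gadd45a (0.52) and Gadd45b (0.12) were among them, with adjusted p of 0.401 to 0.908. Ccng1 (−0.18) and Mdm4 (0.0029) did not pass, nor did Cdkn1b (0.44, adjusted p = 0.293). The difference of Cdkn2a, given here after its values were seen, was −4.26 and did not pass either (adjusted p = 0.105).

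The count of 10 calls was 4 without PRP4mo_bulk, and 6 without PRP1cl11_VII, PRP4mo_Cl09 or Clone_347. Slc3a2, Rb1 and Ccnd3 passed whichever culture was left out, whereas the calls of Ccnd1 and Eif2ak3 were lost in 13 and 6 of the 16 such fits. After a first transplantation 2 of 185 passed (1.08%, beside 0.516% of all), Slc3a2 (0.65 ± 0.09, adjusted p = 0.0125) and Rb1 (0.69 ± 0.13, adjusted p = 0.0352), both higher. That count was 0 without PRP4mo_bulk or Clone_217, 1 without PRP1cl11_VII, PRP4mo_Cl09, Clone_218 or Clone_907, and 4 without Clone_57 or Clone_287.

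Before grafting, 3 of 185 passed between TEC and HF cultures (1.62%), a share near the 1.55% of all probe sets. Ccnd3 was higher in TEC (0.71), and Slc3a2 (−0.53) and Psat1 (−0.63, again a description) were lower. Psat1 was not called in 15 of the 16 fits that left out a culture, and Slc3a2 in 7. The count was 1 without PRP1cl11_VII, PRP4mo_bulk, PRP4mo_Cl09 or Clone_354, and 5 without PRE16cl11_VII. Fits that leave a single ungrafted HF culture are not counted here. Slc3a2 read 11.62 and 11.92 in grafted HF cultures and 11.59 and 11.55 in ungrafted ones, close to its level in grafted TEC cultures. Between 4months and P1 cultures Nqo1 rose by 1.09 (adjusted p = 0.0337) and Stc2, a stress-induced glycoprotein, fell by 1.63 (adjusted p = 0.0406), and these calls were lost in 8 and 9 of the 16 such fits. In the other comparisons 0 of the 185 passed.

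Array medians lay between 5.29 and 5.55 except for array 1 of YR219P5_RC at 5.78, and arrays of 1 culture correlated at 0.984 to 0.997 over probe sets. For the 6 probe sets the 2 arrays of a culture differed by a median of 0.02 (Mdm2) to 0.20 (Nupr1), with the largest gap, 0.84, for Nupr1 in PRE16cl11_VII. All cultures carried high epithelial markers (list means of 10.5 to 11.2), while among the thymic epithelial markers Psmb11 and Ccl25, genes of cortical thymic epithelium, stayed at or below 4.52 and 3.73. Markers of feeder cells and fibroblasts had list means of 5.09 to 5.41 in second-graft, 5.25 to 5.47 in first-graft and 5.57 to 5.98 in ungrafted TEC cultures. After a second transplantation S100a4 (−1.70) and Twist1 (−1.21) were lower, 2 of 13. The members lay at unlike levels over the 16 cultures: Lum read 2.46 to 2.87, Col1a1 6.58 to 7.23, Col1a2 6.33 to 7.17 and Vim 6.85 to 11.81. Whether feeder RNA has a part in the differences of Nupr1, Gadd45g and Bax was not tested. Haematopoietic marker means were 3.95 to 4.49 in second-graft, 3.98 to 4.33 in first-graft and 3.93 to 4.14 in ungrafted TEC cultures, and limma called 0 of the 8 probe sets in each TEC comparison of these. Ptprc lay between 3.16 and 3.88 over the 16 cultures, whereas Cd68, a macrophage marker, ranged more widely, with 5.17 at the lowest, a median of 5.81 and 8.78 at the highest.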

How the data were processed

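RNA of 16 rat epithelial cultures was measured on 32 Affymetrix arrays, 2 per culture. Signals were summarised per probe set on the log2 scale by the authors. The submitters' processing notes name RMA and Affymetrix Expression Console without a version, and a genome build is not given in the sources used here. Of 29215 probe sets, 15310 carried 1 gene symbol in GEO's platform annotation, 323 several and 13582 none. No filter on level was applied. An array has no count depth, and the number of cultures limits the precision.

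Both arrays of a culture were averaged, since their titles share the culture name. Whether cultures of a group came from separate animals is not labelled, so p-values measure the spread between these cultures. Differences were tested with limma 3.58.1 (lmFit and eBayes, R 4.3.3) over all 15310 probe sets, with 1 coefficient for each of the 5 groups, or in the 12 TEC cultures with state and donor stage, and adjusted by Benjamini-Hochberg within a comparison (threshold 0.05). The scripts were tested on simulated data.

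The 5 genes, the gene lists, the motifs and the tests were chosen with earlier results of these data known. Named genes are the 5, a panel of partners, of which 1 is not reported here, up to 4 genes past the threshold per list and comparison, and the 3 probe sets most correlated with each described one. Alternatives changed the centring, the unit, the model, the cultures included, the arrays and a filter on low levels.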

Additional observations from a re-analysis of the deposited data

Results flagged for a closer look

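Of 30 sets of 4 or 5 cultures examined for the described genes, 3 held a culture set apart from the rest by a gap of more than Dixon's 95% critical value, and chance alone sets apart about 1 in 20. Bax (probe set 10721834) read 8.513 in PRP4mo_bulk, above the other ungrafted TEC cultures at 8.17 to 8.19. This culture also had the largest gap between its 2 arrays for that probe set, 0.55. Nupr1 read 5.367 in PRP4mo_bulk, below the other ungrafted TEC cultures at 5.60 to 5.65. Single arrays overlapped, with 5.04 and 5.69 in PRP4mo_bulk beside 6.06 and 5.22 in PRE16cl11_VII. Among the 5 E16 cultures Nupr1 read 5.643 in PRE16cl11_VII, the one that was not grafted, below the 4 grafted ones at 8.75 to 9.25.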

How the results depend on the processing

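The 66 differences of the described genes were recomputed under 1764 alternatives in all. No called difference changed sign. The 7 that were given without a test moved by less than the spread between cultures in 187 recomputations. Leaving out 1 of 4 cultures cannot move a group mean that far, so nothing about stability is read from this. In 36 of the 187 limma no longer called them, most often for Gadd45g after a first transplantation (15) and not once for Nupr1 after a second. With clonal cultures only, both Bax probe sets after a second and Nupr1 and Gadd45g after a first transplantation were not called. Over all cultures left out in turn, the second-graft differences ranged from −0.87 to −0.63 and from −0.84 to −0.64 for Bax and from 3.10 to 3.36 for Nupr1, the first-graft ones from 2.45 to 2.91 for Nupr1 and from 1.43 to 1.86 for Gadd45g, and those of P1 from E16 from −0.87 to −0.71 for Cdkn1a and from −1.07 to −0.84 for Mdm2. Differences that were not called passed in 35 recomputations, most of them with single arrays fitted and a random block for culture. Among these were Gadd45g after a second transplantation (adjusted p = 0.00173) and Cdkn1a and Mdm2 of 4months against P1 (0.0057 and 0.00401). Such fits count the 2 arrays of a culture as separate observations, so their p-values may be too small for differences between cultures. Array numbers 1 and 2 are shared between cultures only as numbers: the array differences of culture pairs correlated at a median of −0.00834 (120 pairs, −0.572 to 0.507). Adding these numbers as a replicate block to the fit with a random block changed none of the calls named above (Gadd45g adjusted p = 0.00223).

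The counts of list genes depended more on the setting, and the causes were not tested. Counts with the random or replicate block come from the fits of single arrays, and the same limit holds for their p-values. After a second transplantation the count of 10 became 40 with the random block, 40 with the replicate block added, 1 with clonal cultures only, 5 with array number 2 only and 4 to 11 with a culture left out. After a first, the count of 2 became 34 and 32 with these blocks, 4 with donor stage in the model, 1 with arrays centred on their medians, with an intensity trend, with array number 2 only or without array 1 of YR219P5_RC (chosen after seeing the data), and 0 to 4 with a culture left out. By limma it was 0 with only the compared cultures in the fit and 0 with clonal cultures (46 and 34 at an unadjusted p under 0.05). Before grafting, the count of 3 between TEC and HF became 20 and 20 with the blocks. It was 1 with centring or array number 2 only and 1 to 5 with a TEC culture left out. With donor stage in the model it was 8, but that fit has no term for P5. It treats HF cultures as E16, so nothing is read from the 8. With clonal cultures only, each HF group holds a single culture, and no count is given. Between P1 and E16 the count of 29 became 77 and 72 with the blocks, 14 with array number 2 only and 1 to 51 with a culture left out. The 7 called genes of arrest, repair and metabolism became 3 with only the compared cultures, 3 with clonal cultures and 0 to 7 with a culture left out. Groups hold 2 to 5 cultures, which limits all tests, and signals over background were not analysed here.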
